A study of Xenopus laevis with 17 samples.

Results

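Planar cell polarity genes were followed in frog ectoderm that had been driven to form multiciliated cells and in which Foxj1 or Foxn4 had been disrupted. The set comprised the 10 gene symbols VANGL1, VANGL2, CELSR1, CELSR2, FZD3, FZD6, PRICKLE1, PRICKLE2, DVL1 and DVL2. Every gene model carrying one of these symbols was taken, which gave 19 of the 24383 models in the files. Xenopus laevis holds paired copies of many genes from an old genome duplication, and each model is named here by its scaffold of the version 7.1 assembly. CELSR2 and DVL1 had 1 model each, PRICKLE2 had 3, and the other 7 symbols had 2. RefSeq's annotation of the later version 10.1 assembly names 1 DVL2 gene and 2 PRICKLE2 genes, so whether the extra models are separate genes was not determined. All 19 passed the filter on low counts.

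Planar cell polarity aligns cells within the plane of a sheet. The core proteins form 2 complexes that settle on opposite sides of each cell, with Vangl and Prickle on one side, Frizzled and Dishevelled on the other, and the Celsr cadherins bridging neighbouring cells. In multiciliated cells of the frog skin and of other ciliated tissues the system orients the basal bodies, so that the cilia beat in a common direction. Prickle and Vangl also act in the cell movements of gastrulation and of neural tube closure.

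All RNA came from animal caps, the ectoderm cut from the top of the embryo, of Xenopus laevis embryos whose strain the labels do not give. Caps were cut at stage 10 and used 20 per condition. The injected fusion proteins, which carry the hormone-binding domain of the human glucocorticoid receptor, were activated by 20 µM dexamethasone at mid-stage 11, and caps were collected 9 h after that, at about stage 18. The 3 control libraries received mRNA for Multicilin (MCIDAS), which turns ectoderm cells multiciliated, fused to that domain (MCIDAS-HGR), and were re-used from an earlier study. The other libraries received Multicilin mRNA with Cas9 protein and a foxj1 guide RNA (Foxj1 CRISPR, n = 2), with Cas9 protein and a foxn4 guide RNA (Foxn4 CRISPR, n = 2) or with a foxn4 morpholino (n = 2), a synthetic antisense molecule. Every RNA group thus carried Multicilin, and none shows the genes without it. The labels do not say what share of the cells was edited. Each of 2 further libraries was chromatin immunoprecipitated with the fusion Foxn4-GFP-HGR, given alone or together with Multicilin mRNA.

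The libraries held between 8265823 and 22041340 estimated counts, and a member between 12 and 7377 in a library. All controls stem from the earlier study, so a difference from the control cannot be told apart from a difference between studies, whereas the perturbed groups belong to 1 study. The labels name no separate clutches, and the p-values therefore measure only a spread between libraries that may be technical. Markers of multiciliated cells (9 models of 7 of 8 listed symbols) summed to between 6150 and 9950 CPM (counts scaled to a common library size) in the controls, and epidermal and basal markers (28 models of 8 symbols) to between 25900 and 28700 CPM, with no found symbol at 0 in either list. Fewer cells of a type and less RNA per cell cannot be told apart in such bulk samples.

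In the control caps models of VANGL1, CELSR1, CELSR2 and FZD6 stood highest and those of PRICKLE1 lowest. Levels of different genes were compared per length, as the authors' TPM, their estimate of transcript abundance that divides by length, with n = 3. VANGL1, one of the pair of Vangl membrane proteins, led with 114 ± 5.91 TPM (SD) on scaffold 169011 and 61.4 ± 11.7 TPM on scaffold 347078. CELSR1 on scaffold 3286 followed at 51.7 ± 7.26 TPM, then CELSR2 at 34.8 ± 7.06 TPM and FZD6 on scaffold 160942 at 34.6 ± 2.83 TPM. The spreads of the latter pair overlapped, as did those of VANGL1 on scaffold 347078 and CELSR1 on scaffold 3286.

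A middle range of levels in TPM lay between 5.92 ± 1.57, for FZD6 on scaffold 63404, and 23.0 ± 6.09, for CELSR1 on scaffold 33104. It held 12 models, among them all models of VANGL2, DVL1, DVL2, FZD3 and PRICKLE2, and its neighbours in order lay within each other's spread. The PRICKLE1 models stood apart at the bottom, at 0.617 ± 0.247 TPM on scaffold 30470 and 0.552 ± 0.187 TPM on scaffold 74339. In the Foxj1 CRISPR caps the same models reached 3.85 and 7 TPM.

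**Figure D1:**
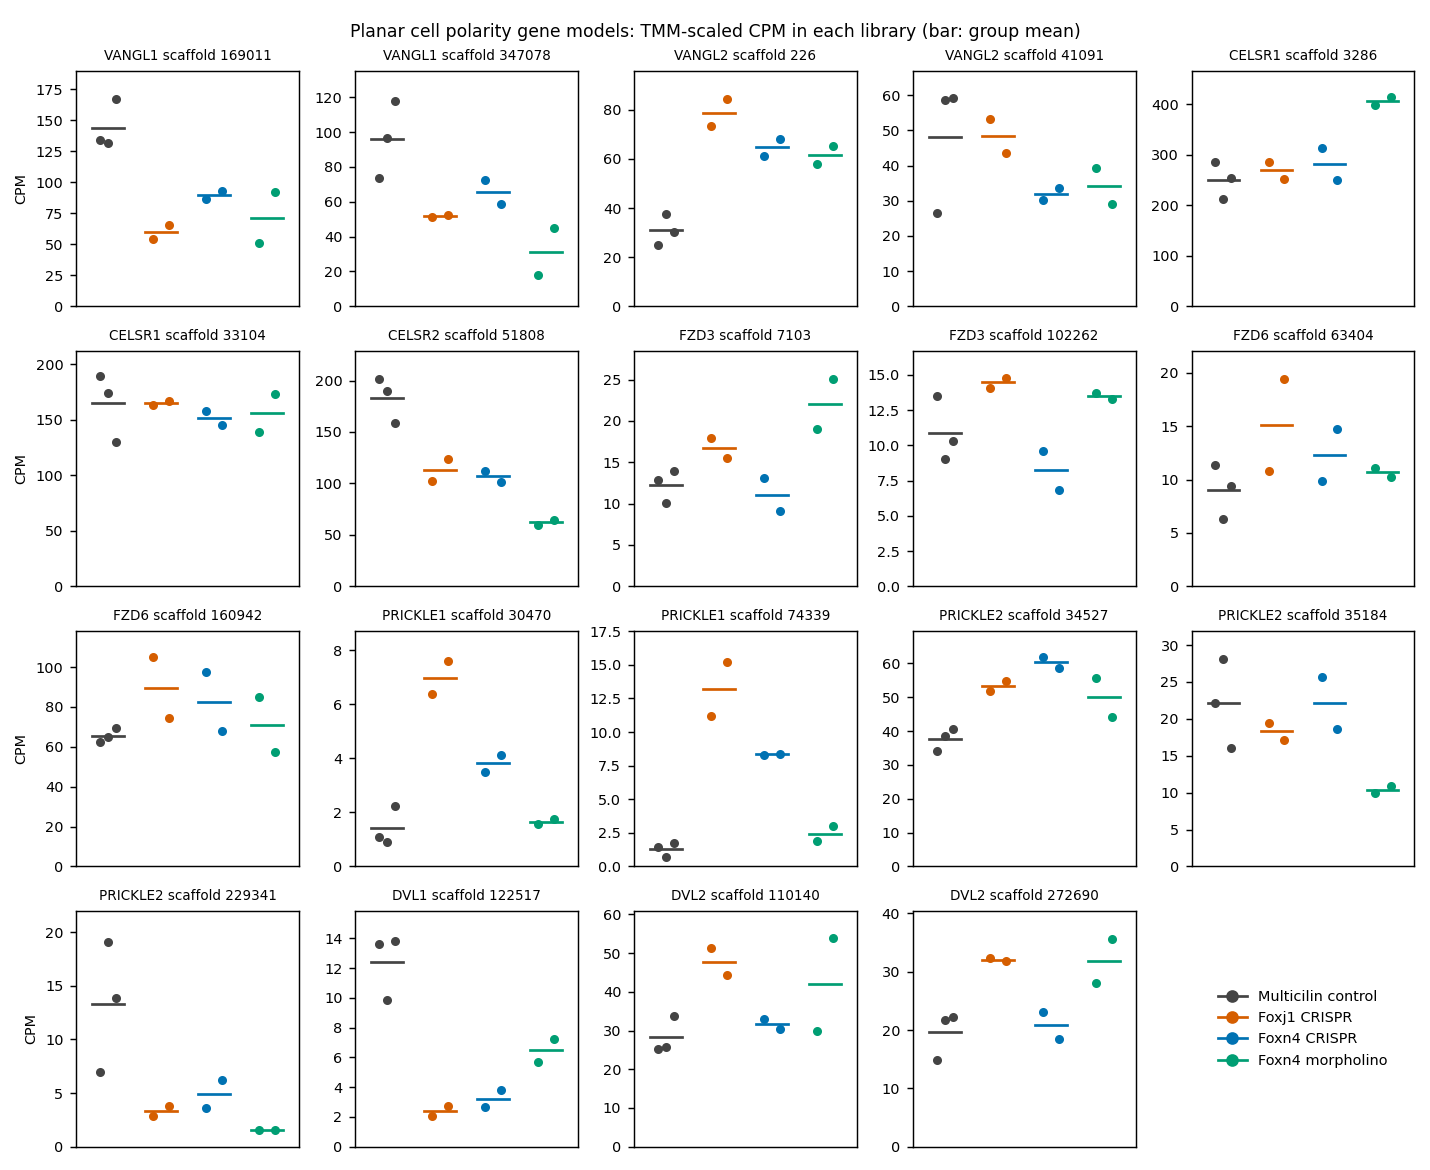
Each panel plots 1 gene model on a linear axis of CPM that starts at 0, with a point for each of the 9 libraries and a bar at the group mean (3 control libraries, 2 in each other group). The PRICKLE1 panels show the Foxj1 and Foxn4 CRISPR points above all controls, the CELSR2 and DVL1 panels show all perturbed points below all controls, and the second CELSR1 panel shows overlapping groups.

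Members were tested with edgeR in 1 fit of the 19058 models that passed the filter, and a model is called at an adjusted p under 0.05. In the Foxj1 CRISPR caps 3 of the 19 members rose, 4 fell and 12 were not called against the control. That is 36.8% called, and among all tested models 40.5% were called, 19.8% higher and 20.7% lower. The groups did not overlap at 14 members, against 64.3% of all models. Both PRICKLE1 models and one copy of VANGL2 were the risers, and CELSR2, DVL1, one copy of VANGL1 and the smallest PRICKLE2 model were the fallers.

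In the Foxn4 CRISPR caps 4 members rose, 3 fell and 12 were not called. This is again 36.8%, beside 23.2% of all models, of which 12.6% were higher and 10.7% lower. The groups did not overlap at 9 members, beside 54.8% of all models. The number of all models called moved with single libraries, as the closing section gives, and the number of members called rested on them too. It was 4 without control replicate 1, 3 without either Foxj1 CRISPR replicate, whose libraries enter the shared estimate of spread, and 1 and 2 without Foxn4 CRISPR replicates 1 and 2.

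With the Foxn4 morpholino 4 members rose, 6 fell and 9 were not called, or 52.6%, beside 45% of all models, 23.9% higher and 21.1% lower. The groups did not overlap at 12 members, beside 62.2% of all models. The PRICKLE1 models were not among the calls. Here and with Foxj1 CRISPR the number of all models called moved with single libraries, as did the count of members. The count was 6 without either Foxj1 CRISPR replicate, and 6 and 5 without morpholino replicates 1 and 2, and for Foxj1 CRISPR it was 4 without Foxj1 CRISPR replicate 1. The median log2 fold change of the members was 0.4, 0 and 0.24 in the 3 comparisons, beside 0.01, -0.03 and 0.08 for all models. The comparisons share their 3 control libraries, so their values are set side by side and not counted as repeats.

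**Figure D2:**
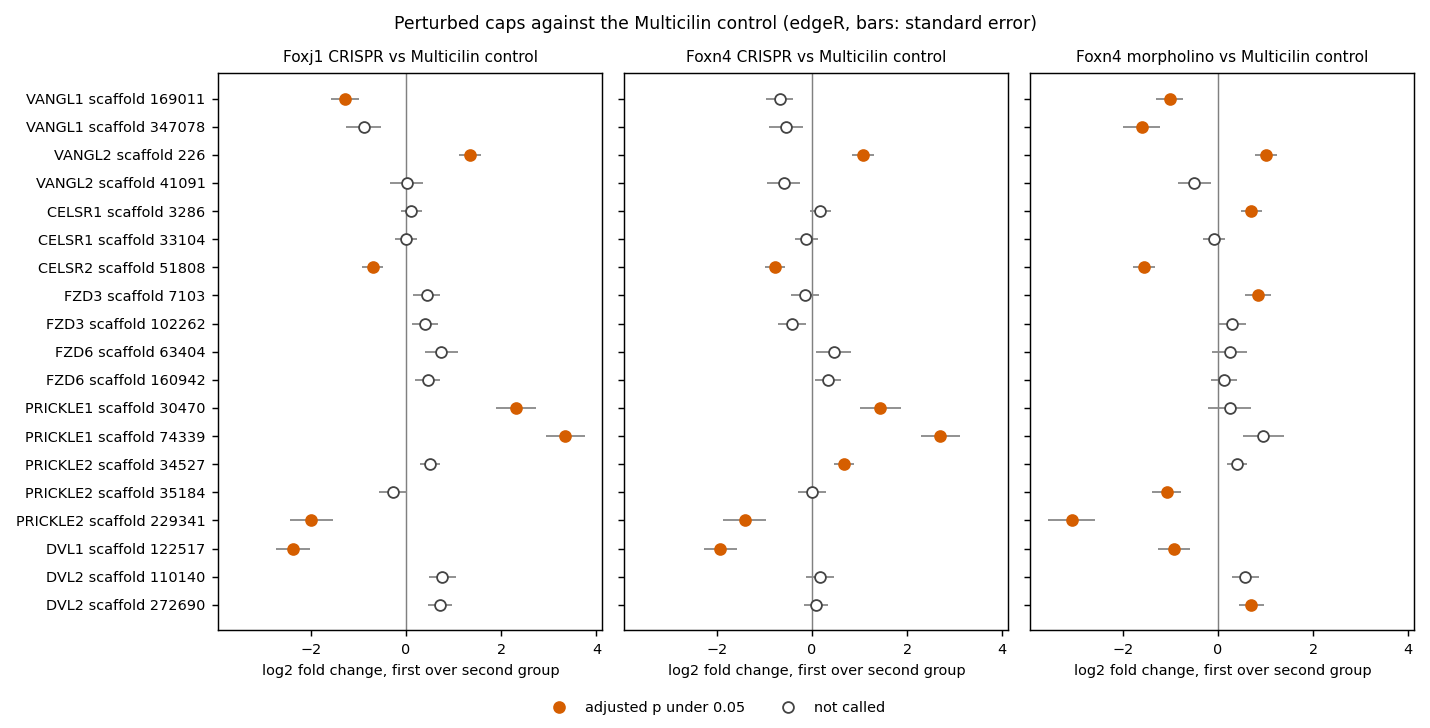
Points are log2 fold changes of the 19 models (perturbed group over the Multicilin control) with standard errors as bars, for Foxj1 CRISPR, Foxn4 CRISPR and the Foxn4 morpholino. Filled points are the 7, 7 and 10 models called, and the longest shifts are those of PRICKLE1 on scaffold 74339 to the right with Foxj1 CRISPR (3.35) and of PRICKLE2 on scaffold 229341 to the left with the morpholino (-3.08).

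VANGL1 was lower and one copy of VANGL2 higher in the perturbed caps. VANGL1 and VANGL2 encode membrane proteins with 4 passes through the membrane that recruit Prickle. VANGL1 on scaffold 169011 (589431 to 599179) stood at 134, 132 and 167 CPM in the controls, 53.8 and 65.3 with Foxj1 CRISPR, 86.6 and 93.2 with Foxn4 CRISPR, and 50.7 and 91.9 with the morpholino. Every perturbed library lay below every control. The log2 fold change was -1.28 ± 0.29 (SE) for Foxj1 CRISPR (edgeR adjusted p = 0.00622) and -1.02 ± 0.28 for the morpholino (adjusted p = 0.0154). That of -0.68 ± 0.28 for Foxn4 CRISPR was not called. The first call ended without Foxj1 CRISPR replicate 1 (-1.14) and the second without morpholino replicate 1 (-0.66) and with uniquely matching reads (-0.72).

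Its copy on scaffold 347078 (773499 to 783640) stood at 73.7, 96.6 and 118 CPM in the controls, 51.4 and 52.6 with Foxj1 CRISPR, 72.2 and 58.8 with Foxn4 CRISPR, and 17.8 and 44.9 with the morpholino. Here too no perturbed library reached the lowest control. Only the morpholino value of -1.61 ± 0.38 was called (edgeR adjusted p = 0.00689), and it remained so under all 16 alternative settings tried per model, at -2.44 without morpholino replicate 2. The Foxj1 CRISPR value of -0.89 ± 0.37 missed the threshold (adjusted p = 0.0765) and was called by DESeq2 (-0.93), without either morpholino replicate (-0.89 each), with only the 2 groups (-0.87) and with every matching read credited (-1.18). Summed over both copies VANGL1 fell in the Foxj1 CRISPR caps (-1.08 ± 0.3, edgeR adjusted p = 0.0163) and in the morpholino caps (-1.2 ± 0.3, adjusted p = 0.00937).

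VANGL2 on scaffold 226 (541233 to 597048) stood at 25.1, 37.5 and 30.1 CPM in the controls. It reached 73.4 and 84.3 CPM with Foxj1 CRISPR, 61.2 and 68.3 with Foxn4 CRISPR and 58.0 and 65.3 with the morpholino, so no library of any perturbed group overlapped the controls. The log2 fold changes were 1.35 ± 0.23 (edgeR adjusted p = 0.0017), 1.07 ± 0.23 (adjusted p = 0.0104) and 1 ± 0.23 (adjusted p = 0.00667). The Foxj1 CRISPR call was kept under all 16 alternatives. That of Foxn4 CRISPR ended without either of its own replicates (1.16 and 0.98), and when each model was credited with every read it matched this call ended (0.46), as did that of the morpholino (0.1).

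The other VANGL2 copy, on scaffold 41091 (1975712 to 2030640), was not called in any comparison when all libraries were used, and without control replicate 1 it was called with the morpholino (-0.79). Its controls were spread widely, at 26.5, 58.8 and 59.3 CPM, and all 6 perturbed libraries lay between 29.1 and 53.2 CPM, inside the control range. Summed over both copies VANGL2 was not called with Foxj1 CRISPR (0.71 ± 0.27, adjusted p = 0.0526), Foxn4 CRISPR (0.31 ± 0.27) or the morpholino (0.3 ± 0.27). The copy on scaffold 226 held 48.6, 38.9 and 33.6% of the CPM of the gene in the controls and from 58.0 to 69.2% in the perturbed libraries. Uniquely matching reads alone gave it 51.0, 40.3 and 34.4% against between 58.6 and 70.8%, so the ranges were apart on either count. The difference between the copies was not itself tested.

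**Figure D3:**
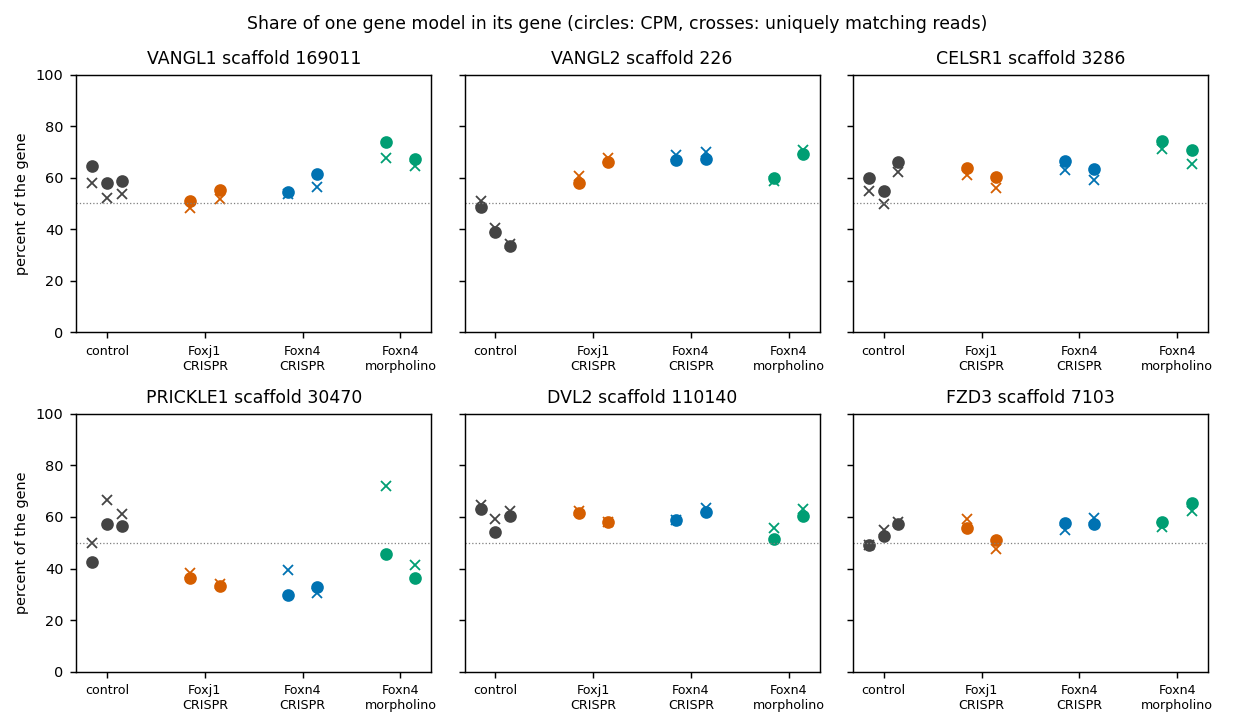
For each of 6 genes the share of 1 named model in the gene is plotted in percent for every library, from CPM (circles) and from uniquely matching reads (crosses), with a dotted line at equal shares. VANGL2 on scaffold 226 lies between 33.6 and 51.0% in the controls and from 58.0 to 70.8% elsewhere, while in the DVL2 panel the groups overlap.

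CELSR2 fell in all 3 perturbed groups, and one CELSR1 copy rose in 1 of them. The Celsr proteins are large cadherins with 7 passes through the membrane that join cells by binding each other. CELSR2 (scaffold 51808, 118430 to 219878) stood at 201, 190 and 159 CPM in the controls, 102 and 124 with Foxj1 CRISPR, 112 and 101 with Foxn4 CRISPR and 59.4 and 64.8 with the morpholino. All perturbed libraries lay below all controls, and both morpholino libraries below both CRISPR groups. Nearly all its reads matched this model alone (100% of the estimated count).

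Its log2 fold change was -0.7 ± 0.22 for Foxj1 CRISPR (edgeR adjusted p = 0.0286), -0.78 ± 0.22 for Foxn4 CRISPR (adjusted p = 0.0301) and -1.56 ± 0.23 for the morpholino (adjusted p = 0.000736). The morpholino call of CELSR2 was kept under all 16 alternatives. The Foxj1 CRISPR call ended when control replicate 1 (-0.61), either Foxj1 CRISPR library (-0.57 and -0.85) or either Foxn4 CRISPR library (-0.68 and -0.7) was left out. The Foxn4 CRISPR call ended when control replicate 1 (-0.69), either Foxj1 CRISPR library (-0.78 each) or either Foxn4 CRISPR library (-0.84 and -0.71) was left out, and with uniquely matching reads (-0.69). With only the 2 groups both calls ended (-0.69 and -0.77).

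CELSR1 on scaffold 3286 (923368 to 1035081), the most abundant member by CPM, rose with the morpholino. It stood at 285, 212 and 254 CPM in the controls and at 398 and 414 with the morpholino, with the CRISPR libraries between 249 and 313. Its morpholino log2 fold change was 0.7 ± 0.22 (edgeR adjusted p = 0.0268). It was no longer called without control replicate 3 (0.7), either Foxj1 CRISPR replicate (0.69 each), Foxn4 CRISPR replicate 1 (0.69) or morpholino replicates 1 and 2 (0.72 and 0.66). With every matching read credited it fell short at 0.28, and with only the 2 groups at 0.62. The copy on scaffold 33104 (590983 to 687269) lay between 130 and 190 CPM in all 9 libraries, with overlapping groups and log2 values of 0, -0.12 and -0.08.

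Of the 4 Frizzled member models, 1 was called, in 1 comparison with the control. FZD3 and FZD6 are receptors of the Wnt family that place Dishevelled at the membrane. FZD6 on scaffold 160942 (976659 to 1013237) ran from 62.6 to 69.3 CPM over the controls and from 57.2 to 105 over the perturbed libraries. On scaffold 63404 (134470 to 165935) it ran from 6.32 to 11.4 CPM and from 9.88 to 19.4. Neither FZD6 model was called in any comparison on the estimated counts, with log2 values from 0.12 to 0.74 against the control. With every matching read credited, the model on scaffold 63404 was called with Foxj1 CRISPR against the control (0.79). It was then also called between the morpholino and Foxj1 CRISPR (-0.87).

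FZD3 on scaffold 7103 (594527 to 646425) stood at 12.9, 10.1 and 13.9 CPM in the controls and at 19.0 and 25.1 with the morpholino, and rose there by 0.84 ± 0.28 (edgeR adjusted p = 0.0311). That call ended without control replicates 1 and 2 (0.87 and 0.7), without either Foxj1 CRISPR replicate (0.83 each) and without morpholino replicate 2 (0.61). It also ended with uniquely matching reads (0.7), with every matching read credited (0.52) and with only the 2 groups (0.76). Its copy on scaffold 102262 (2084126 to 2142474) was not called, with 13.5, 9.03 and 10.3 CPM in the controls and 13.7 and 13.3 with the morpholino. Uniquely matching reads made up 37.9 and 38.7% of the estimated counts of these copies, so the split between them is uncertain.

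PRICKLE1 was higher in both CRISPR groups, and with the morpholino the call of one copy depended on how reads were assigned. Prickle proteins carry LIM domains and bind Vangl at the membrane. PRICKLE1 on scaffold 74339 (3116341 to 3188715) stood at 1.46, 0.677 and 1.72 CPM in the controls, 11.2 and 15.2 with Foxj1 CRISPR, 8.31 and 8.4 with Foxn4 CRISPR and 1.87 and 3.03 with the morpholino. The CRISPR libraries lay far above the controls, and the morpholino libraries just above them. Its log2 fold change was 3.35 ± 0.41 for Foxj1 CRISPR (edgeR adjusted p = 0.000369) and 2.69 ± 0.41 for Foxn4 CRISPR (adjusted p = 0.00207), and both calls were kept under all 16 alternatives. With the morpholino it was 0.95 ± 0.43 and not called, but with every matching read credited it was 2.38 and called.

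The copy of PRICKLE1 on scaffold 30470 (3582043 to 3641449) gave the same order of groups, with 1.08, 0.903 and 2.24 CPM in the controls, 6.37 and 7.58 with Foxj1 CRISPR, 3.49 and 4.12 with Foxn4 CRISPR and 1.57 and 1.74 with the morpholino. Here the morpholino libraries lay within the control range. It rose by 2.3 ± 0.42 with Foxj1 CRISPR (edgeR adjusted p = 0.00234), under all 16 alternatives too, and by 1.43 ± 0.43 with Foxn4 CRISPR (adjusted p = 0.0376). The latter call ended when control replicate 1 or 2 (1.29 and 1.2), either Foxj1 CRISPR library (1.43 each) or either Foxn4 CRISPR library (1.56 and 1.3) was left out, with uniquely matching reads (1.29) and with only the 2 groups (1.44). These are sparse data, with between 12 and 206 estimated counts of either model in a library. Summed over both copies the values were 2.93 ± 0.37, 2.19 ± 0.37 and, with no call, 0.63 ± 0.38.

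Markers of other tissues also differed from the control, with the morpholino as well as in the CRISPR groups. The mesoderm and organizer list (26 models of 10 of 11 symbols, none of these at 0) summed to between 4.57 and 12.3 CPM in the controls, 50 and 57.6 with Foxj1 CRISPR, 31.4 and 34.1 with Foxn4 CRISPR and 23.3 and 30.4 with the morpholino. Of its 11 tested models 8, 7 and 5 rose and 0, 0 and 1 fell in the 3 comparisons. Among all tested models 19.8, 12.6 and 23.9% were called higher and 20.7, 10.7 and 21.1% lower. These shares are to be read beside the counts of each marker list. Of 21 tested models of the neural plate list (26 models of 8 of 9 symbols, none of these at 0) 13, 11 and 15 rose and 2, 1 and 0 fell. Their sum ran from 85.7 to 214 CPM over the controls, from 372 to 431 with Foxj1 CRISPR, from 329 to 389 with Foxn4 CRISPR and from 329 to 513 with the morpholino. The neural crest list (12 models of 4 of 5 symbols, none of these at 0) ran from 25.6 to 50.6 CPM over the controls, from 10.4 to 11.6 with Foxj1 CRISPR, from 15.2 to 16.7 with Foxn4 CRISPR and from 32.9 to 58.3 with the morpholino, and of its 7 tested models 0, 0 and 1 rose and 3, 3 and 3 fell. Endoderm markers (6 models of 3 of 6 symbols, none of these at 0) ran from 0.825 to 2.24 CPM over the controls and from 4.46 to 9.42 over the perturbed libraries. The part of these cell types in the levels of PRICKLE1 and VANGL2 was not tested.

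The PRICKLE2 models went different ways. The shortest, on scaffold 229341 (1307769 to 1324368), stood at 6.98, 19.1 and 13.9 CPM in the controls, 2.89 and 3.83 with Foxj1 CRISPR, 3.61 and 6.26 with Foxn4 CRISPR and 1.57 in both morpholino libraries. All perturbed libraries lay below the lowest control. Its log2 fold changes were -1.99 ± 0.46 (edgeR adjusted p = 0.00735), -1.42 ± 0.45 (adjusted p = 0.0453) and -3.08 ± 0.5 (adjusted p = 0.00115). The morpholino call was kept under all 16 alternatives.

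The Foxj1 CRISPR call of that PRICKLE2 model ended without Foxj1 CRISPR replicate 1 (-1.8). The Foxn4 CRISPR call ended when control replicate 2 or 3 (-1.06 and -1.37), either Foxn4 CRISPR library (-1.07 and -1.88) or any library of the other perturbed groups (-1.42 each) was left out, with uniquely matching reads (-1.33) and with only the 2 groups (-1.4). Its reads matched no other model (99.9% unique). The model start nearest to its own was that of SYP, 4886 bp away. For the PRICKLE2 models on scaffolds 34527 and 35184 it was that of THOC7 and of PSMD6. Whether the model on scaffold 229341 is a copy of PRICKLE2 or another gene was not determined.

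PRICKLE2 on scaffold 34527 (5452582 to 5561878) stood at 34.1, 38.5 and 40.5 CPM in the controls and between 44.1 and 61.9 in all perturbed libraries, above the controls. Only the Foxn4 CRISPR value of 0.68 ± 0.21 was called (edgeR adjusted p = 0.0444). It lost the call under 11 of the 16 alternatives, and it turned to -0.04 when only uniquely matching reads, 29.5% of the estimated count, were used. Among single libraries the call rested on control replicates 1 and 3 (0.63 and 0.75 without them), both Foxj1 CRISPR libraries (0.67 each) and both Foxn4 CRISPR libraries (0.65 and 0.71).

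PRICKLE2 on scaffold 35184 (1068528 to 1163874) stood at 22.1, 28.1 and 16.1 CPM in the controls and at 9.92 and 10.9 with the morpholino, which lay below every other library. Its log2 fold change there was -1.08 ± 0.3 (edgeR adjusted p = 0.0153). The value was -0.38 with uniquely matching reads, with no call, and the call also ended without morpholino replicates 1 and 2 (-1.02 and -1.16). For the model on scaffold 34527 the morpholino value, 0.4 and not called, turned to a called -1.37 with uniquely matching reads and to a called 1.5 with every matching read credited. Summed over its 3 models PRICKLE2 had values of 0.07 ± 0.21, 0.28 ± 0.21 and -0.21 ± 0.21, and none was called.

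DVL1 fell and DVL2 did not. Dishevelled proteins are cytoplasmic carriers of the Frizzled signal. DVL1 (scaffold 122517, 1973022 to 2048705) stood at 13.6, 9.82 and 13.8 CPM in the controls, 2.03 and 2.72 with Foxj1 CRISPR, 2.65 and 3.8 with Foxn4 CRISPR and 5.7 and 7.24 with the morpholino. Every perturbed library lay below every control, with the morpholino libraries in between. Its log2 fold change was -2.38 ± 0.35 for Foxj1 CRISPR (edgeR adjusted p = 0.000841), a call kept under all 16 alternatives. It was -1.93 ± 0.35 for Foxn4 CRISPR (adjusted p = 0.00465) and -0.93 ± 0.33 for the morpholino (adjusted p = 0.039).

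The fall of DVL1 with the morpholino turned to 0.46, with no call, when every matching read was credited, and the Foxn4 CRISPR value then lost its call (-0.8). Only 17.9% of the reads that matched DVL1 matched nothing else. The morpholino call also ended without any single library other than control replicate 2. The values were -0.86 and -0.85 without control replicates 1 and 3, -0.94 without each of the 4 CRISPR libraries, and -0.78 and -1.12 without morpholino replicates 1 and 2. The Foxn4 CRISPR call ended without Foxn4 CRISPR replicate 1 (-1.69). With uniquely matching reads the 3 values of DVL1 were -3.69, -2.62 and -2.19, all called, and with every matching read credited the Foxj1 CRISPR value was -1.18 and called.

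DVL2 on scaffold 110140 (35202 to 45938) stood at 25.3, 25.7 and 33.8 CPM in the controls, 51.3 and 44.4 with Foxj1 CRISPR, 33.1 and 30.3 with Foxn4 CRISPR and 29.9 and 53.9 with the morpholino. The one on scaffold 272690 (38803 to 48035) stood at 14.9, 21.7 and 22.3, then 32.3 and 31.9, 23.1 and 18.5, and 28.1 and 35.7 CPM. In both, the Foxj1 CRISPR libraries lay above the controls and the Foxn4 CRISPR libraries within or close to their range. With Foxj1 CRISPR the values of 0.76 ± 0.28 and 0.71 ± 0.26 missed the threshold (edgeR adjusted p = 0.0532 and 0.0506), and the sum over both, 0.77 ± 0.25, passed it (adjusted p = 0.0303). The first passed it without control replicate 3 (0.93) or either morpholino replicate (0.76 each), and the second without control replicate 2 (0.8). Both passed it with every matching read credited (0.66 and 0.68), and the first also with only the 2 groups (0.77). Uniquely matching reads made up 34.3 and 31.5% of their estimated counts.

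With the morpholino DVL2 on scaffold 272690 was called at 0.7 ± 0.26 (edgeR adjusted p = 0.0487). That call was kept under 1 of 16 alternatives, the fit without control replicate 2. The values without control replicates 1 and 3 were 0.54 and 0.8, without morpholino replicates 1 and 2 they were 0.86 and 0.51, and without each CRISPR library 0.69. The DVL2 model on scaffold 110140 stood at 0.57 ± 0.28 there and was not called, though it was without morpholino replicate 1 (0.92).

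PRICKLE1 and DVL1 separated the morpholino from Foxj1 CRISPR when the perturbed groups were set against each other, within 1 study. None of the 19 members was called between Foxn4 CRISPR and Foxj1 CRISPR (0 by edgeR and 0 by DESeq2, 1 with an unadjusted p under 0.05), where 1.45% of all models were called, 1.43% higher and 0.021% lower with Foxn4 CRISPR. The widest differences there were those of PRICKLE1 on scaffold 30470 (-0.87 ± 0.46) and FZD3 on scaffold 102262 (-0.82 ± 0.31). A p that misses the threshold does not show equal levels.

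Between the morpholino and Foxn4 CRISPR, which target the same gene, 0 members were called by edgeR, beside 5.47% of all models (2.65% higher and 2.82% lower with the morpholino). An unadjusted p under 0.05 was found at 9 members. The share of all models at that level was not counted, here or in the comparison before, so neither count can be read as a result about the members. DESeq2 called 4 members, and it also called more of all models than edgeR did. Those 4 were CELSR2, PRICKLE1 on scaffold 74339 and PRICKLE2 on scaffolds 35184 and 229341, whose edgeR values were -0.78 ± 0.24, -1.75 ± 0.46, -1.08 ± 0.33 and -1.66 ± 0.52 (adjusted p = 0.0844, 0.054, 0.0798 and 0.0879). The edgeR count was 1 without control replicate 1 (PRICKLE2 on scaffold 229341), 2 without control replicate 2 (PRICKLE1 on scaffold 74339 and PRICKLE2 on scaffold 35184) and 1 without morpholino replicate 2 (VANGL1 on scaffold 347078).

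Between the morpholino and Foxj1 CRISPR 3 members were called, 15.8% beside 7.4% of all models (4.7% higher and 2.7% lower with the morpholino). Both PRICKLE1 models were lower with the morpholino, at -2.41 ± 0.46 on scaffold 74339 (edgeR adjusted p = 0.0149) and -2.06 ± 0.48 on scaffold 30470 (adjusted p = 0.0317), and DVL1 was higher, at 1.45 ± 0.37 (adjusted p = 0.0421). The groups did not overlap at 12 members in each of these 3 comparisons, beside 52.5, 57.6 and 56.8% of all models in the order given. The number of all models called in each also moved with single libraries, as the closing section gives. The 3 calls rested on single libraries, and 0 were left without either Foxj1 CRISPR replicate or morpholino replicate 1, and 1 without either Foxn4 CRISPR replicate or morpholino replicate 2.

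Without the Foxj1 CRISPR replicates in turn, PRICKLE1 had values of -2.62 and -2.18 on scaffold 74339 and -2.2 and -1.94 on scaffold 30470, and DVL1 had 1.24 and 1.67. Without morpholino replicate 1 the values were -2.13, -2 and 1.6. The call of PRICKLE1 on scaffold 30470 also ended without either Foxn4 CRISPR replicate (-2.09 and -2.07) or morpholino replicate 2 (-2.15). That of DVL1 ended without these 3 libraries too (1.42, 1.44 and 1.25), and without control replicates 1 and 3 (1.43 each). With every matching read credited PRICKLE1 on scaffold 74339 moved to -0.82 and was not called. With uniquely matching reads PRICKLE1 on scaffold 30470 (-1.95) and DVL1 (1.5) lost their calls, as did DVL1 with only the 2 groups (1.4). None of the 3 turned direction under any of the 16 alternatives.

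**Figure D4:**
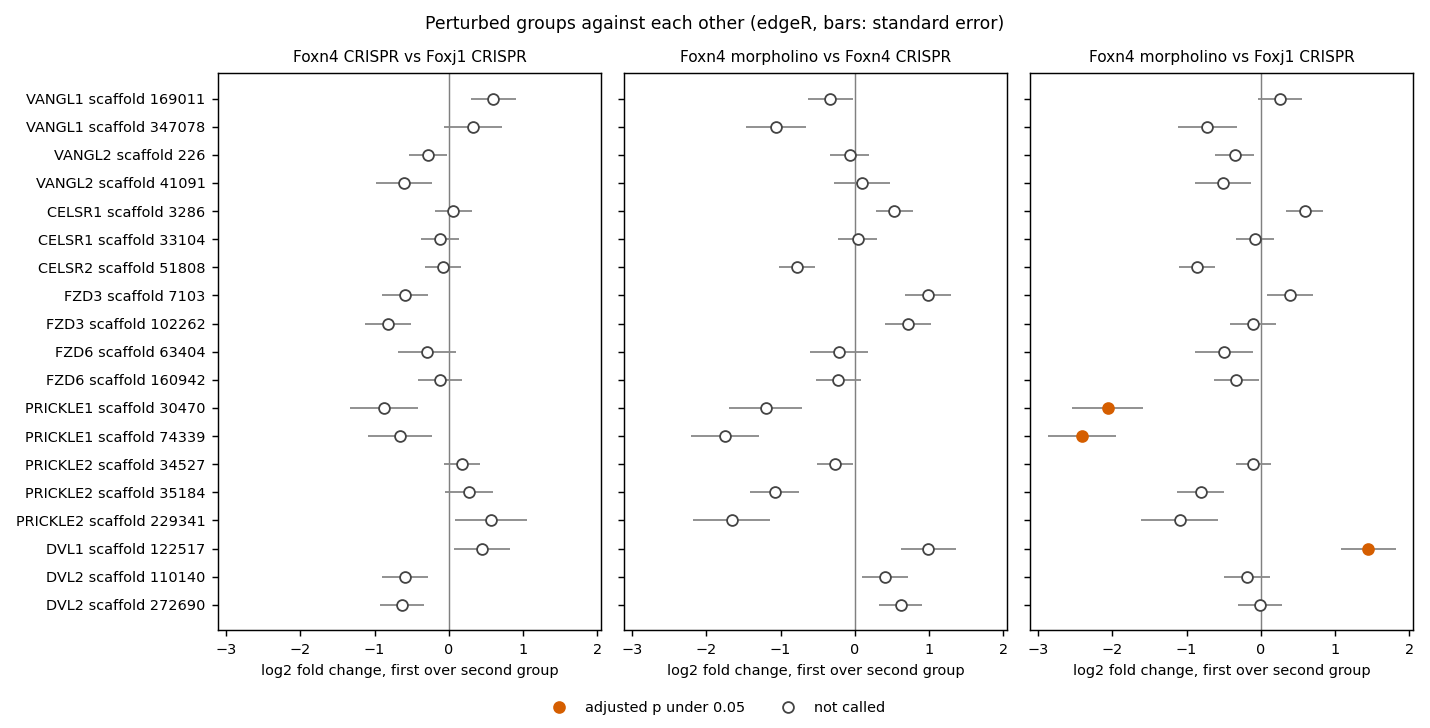
Points are log2 fold changes of the 19 models between pairs of perturbed groups (first over second), with standard errors as bars. The left and middle panels hold 0 filled points and the right panel 3, with both PRICKLE1 models to the left of 0 (-2.06 and -2.41) and DVL1 to the right (1.45).

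The authors' deposited tables of the comparisons with the Multicilin control list all 19 members and have fewer of them under an adjusted p of 0.05. Their names give 3 controls for both Foxn4 comparisons and no number for Foxj1 CRISPR, so its controls may differ from those used here. Of all models listed there, 3199 of 23289 were under it for Foxj1 CRISPR and 2001 of 22911 for Foxn4 CRISPR. For the morpholino it was 4062 of 23204. In the authors' deposited table for Foxj1 CRISPR the members under it were 4. They were both PRICKLE1 models (3.12 on scaffold 74339 and 2.44 on scaffold 30470, turned to perturbed over control), VANGL2 on scaffold 226 (1.43) and DVL1 (-2.12). In the authors' deposited table for Foxn4 CRISPR they were PRICKLE1 on scaffold 74339 (2.5) and DVL1 (-1.81). In the authors' deposited table for the morpholino they were VANGL1 on scaffold 347078 (-1.7), CELSR2 (-1.92) and PRICKLE2 on scaffold 229341 (-2.56).

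For the 3 members with the widest range of group means, the models most alike over the 9 libraries were named, by the smallest root mean square difference of centred log2(CPM + 1). For PRICKLE1 on scaffold 74339, whose group means ranged over 2.65, these were T, the gene of the mesodermal factor Brachyury (difference 0.24), GDF3, a TGF-beta family ligand (0.29), and HARS, the histidyl-tRNA synthetase (0.3). For PRICKLE2 on scaffold 229341 (range 2.38) they were the calpain CAPN5 (0.22), AADACL4 (0.25) and SPECC1 (0.25). For DVL1 (range 1.98) they were LYRM1 (0.16), PDLIM3 (0.17) and FAM43A (0.19). The 9 libraries share the split between studies, so such likeness is a description.

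Foxn4 peaks lay near the start of most members. Within 5000 bp of the model start 15 of 19 members had a peak centre in the library of Foxn4 alone, and 15 in that of Foxn4 with Multicilin. Among all 24383 models the shares were 65.6 and 40.8%, and among the 19058 tested models 76.4 and 49.3%. The members were thus close to the tested models in the first list. Both lists came from 1 library each, of an added, tagged Foxn4, with 65258 and 29673 peaks, so no test of their difference was made.

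The same 4 models had no peak near the start in either list. They were DVL1, both DVL2 models and PRICKLE1 on scaffold 74339. DVL1 had no peak anywhere in the model or within 10000 bp of its start. DVL2 on scaffold 272690 had a peak 8914 bp upstream with Foxn4 alone, and peaks 8904 and 9534 bp upstream with Multicilin. Another gene, PHF23, starts 9116 bp from that DVL2 start, so these peaks cannot be assigned to one gene. DVL2 on scaffold 110140 lies on a short scaffold with no other model. PRICKLE1 on scaffold 74339 had 6 peaks inside the model in the first list and 4 in the second, the nearest 27503 bp from the start in the first list, and its copy on scaffold 30470 had peaks 780, 1521 and 4937 bp downstream of its start with Foxn4 alone. A peak shared by both lists (at least 1 bp of overlap) lay within 5000 bp of 14 members, beside 38.3% of all models. That share was not counted among the tested models alone, which had more peaks in either list.

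Peak heights are the authors' tags, scaled to 10000000 per library and used only within a list. CELSR2 had the tallest peak of any member close to a start in the list of Foxn4 alone, with 243.6 tags 833 bp upstream (117427 to 117767 of scaffold 51808), above 97.9% of the peaks in that list, and another with 98.8 tags 133 bp downstream. CELSR1 on scaffold 33104 had one of 219.3 tags 618 bp upstream. At VANGL1 the nearest peaks were lower, at 60.9 tags 52 bp upstream on scaffold 169011 and 39.3 tags 354 bp downstream on scaffold 347078. Another gene, POGLUT1, starts 4288 and 1654 bp from these VANGL1 starts, so the peaks cannot be assigned to one gene.

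The FZD3 copies resembled each other in where their peaks lay. With Foxn4 alone the nearest peaks were 366 and 326 bp upstream on scaffolds 7103 and 102262, and the tallest of any member lay 22759 and 23147 bp downstream inside the models, with 338.4 and 343.8 tags. With Multicilin the peaks nearest the starts lay 355 and 365 bp upstream, and the tallest of those inside each model 22769 and 23206 bp downstream. The start of FBXO16 lies 355 bp from that of FZD3 on scaffold 102262. VANGL2 had a low peak at either start (29.8 and 18.9 tags) and taller ones inside, up to 138.1 tags 10177 bp downstream on scaffold 226 and 232.8 tags 13193 bp downstream on scaffold 41091. Members with such peaks rose, fell or were not called, and the peaks of the other FZD6 and PRICKLE2 models are plotted with them.

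**Figure D5:**
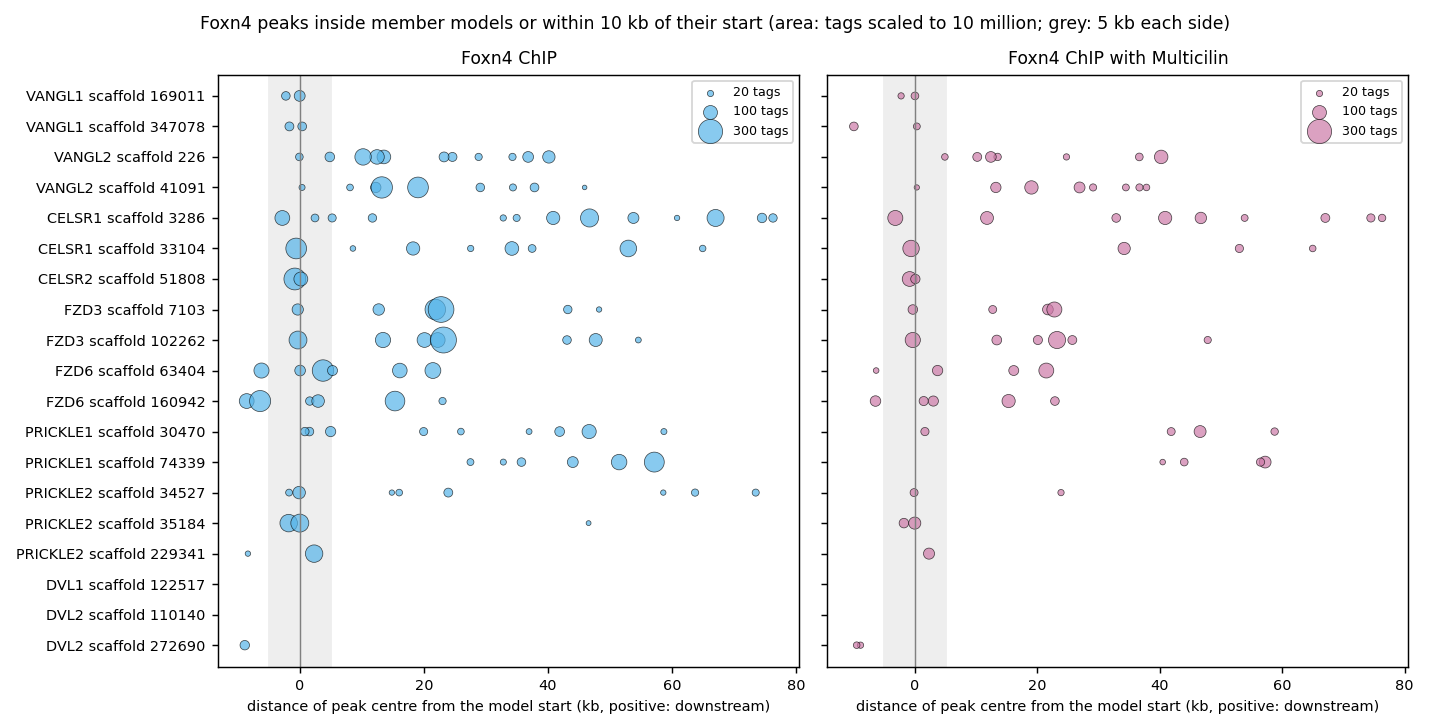
Each circle is a Foxn4 peak inside a member model or within 10 kb of its start, placed by the distance of its centre from the start in kb (positive downstream), with its area set by scaled tags, for Foxn4 alone (left) and with Multicilin (right). The grey band marks 5 kb on either side. The rows of DVL1 and DVL2 on scaffold 110140 are empty, and both FZD3 rows hold their largest circle near 23 kb.

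Other genes of the pathway were taken as lists. Noncanonical Wnt ligands and co-receptors feed into the polarity system, and of 18 tested models 5 rose and 0 fell with Foxj1 CRISPR, 5 and 0 with Foxn4 CRISPR, and 6 and 3 with the morpholino, with medians of 0.36, 0.09 and 0.18. Over all tested models 19.8, 12.6 and 23.9% were called higher and 20.7, 10.7 and 21.1% lower in these comparisons, to be read beside the counts of each list. RYK, a Wnt co-receptor, stood at 4.06, 4.34 and 4.59 CPM in the controls and at 30.2 and 23.0 with Foxj1 CRISPR (log2 2.61 ± 0.25, edgeR adjusted p = 0.000142), with no overlap. With Foxn4 CRISPR it stood at 16.9 and 15.5 CPM (1.9 ± 0.25, edgeR adjusted p = 0.000956), a call kept under all 16 alternatives. The morpholino libraries, at 18.3 and 18.0 CPM, also lay above every control. WNT11, a ligand of gastrulation movements, stood at 0.254, 0.395 and 1.66 CPM in the controls and at 5.93 and 8.32 with Foxj1 CRISPR (3.18 ± 0.62). With Foxn4 CRISPR it stood at 3.86 and 5.31 CPM (2.55 ± 0.63), a call that ended without either Foxn4 CRISPR replicate (2.77 and 2.3). The morpholino libraries, at 1.96 and 2.69 CPM, lay above every control too. With the morpholino the 2 widest rises were those of the receptor FZD7 (3.09 ± 0.34 on scaffold 139113 and 2.19 ± 0.29 on scaffold 20345). The 2 widest falls there were those of WNT5B (-3.49 ± 0.99) and ROR1 (-2.12 ± 0.65), both sparse, with control means of 2.4 and 2.82 CPM. Either call ended without morpholino replicate 1 (-3.07 and -2.64) or 2 (-4.5 and -1.67), and that of ROR1 also without control replicate 2 (-1.54). RYK and WNT11 with Foxj1 CRISPR and FZD7 with the morpholino kept their calls under all 16 alternatives. With every matching read credited RYK stood at 1.59 with Foxj1 CRISPR and FZD7 on scaffold 139113 at 2.38 with the morpholino. Without control replicate 3 WNT11 stood at 4.43 with Foxj1 CRISPR.

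Of 19 tested models of other core paralogs and partners, 0 rose and 5 fell, 0 rose and 2 fell, and 2 rose and 5 fell in the same order of comparisons, with medians of -0.32, -0.17 and -0.11. DVL3, another Dishevelled gene, stood on scaffold 29016 at 58.6, 45 and 44.5 CPM in the controls, 5.86 and 10.6 with Foxj1 CRISPR and 6.48 and 9.71 with the morpholino. Its log2 fold changes were -2.58 ± 0.38 (edgeR adjusted p = 0.000749) and -2.6 ± 0.38 (adjusted p = 0.000688), and both calls were kept under all 16 alternatives, at -1.33 and -0.98 with every matching read credited. ANKRD6, the vertebrate relative of the fly polarity gene diego, fell with Foxj1 CRISPR (-2.58 ± 0.41), but its value was -0.11, with no call, when every matching read was credited.

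Of 21 tested effectors, 7, 5 and 7 fell and 0 rose, with medians of -0.56, -0.32 and -0.6. WDPCP (Fritz), which links polarity to septins and cilia, stood at 79.3, 49.4 and 87.8 CPM in the controls and at 10.3 and 16.9 with Foxj1 CRISPR (-2.41 ± 0.38, edgeR adjusted p = 0.00115), and was called under all 16 alternatives. TIAM1, an activator of the GTPase Rac, went from 477, 410 and 517 CPM in the controls to 135 and 146 with Foxj1 CRISPR (-1.73 ± 0.24) and to 84.6 and 115 with the morpholino (-2.23 ± 0.25), and both falls were kept under all 16 alternatives. With Foxn4 CRISPR it was at 203 and 172 CPM (-1.32 ± 0.24), a call that ended without Foxn4 CRISPR replicate 2 (-1.21).

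Of 9 tested models of basal body orientation, 5, 1 and 4 fell and 0 rose, with medians of -1.14, -0.84 and -0.83. CCDC176 (BBOF1), needed in frogs to keep basal bodies aligned, stood at 240, 147 and 307 CPM in the controls and at 6 and 23.1 with Foxj1 CRISPR (-3.99 ± 0.59, edgeR adjusted p = 0.000791). That value was -3.32 and -5.27 without Foxj1 CRISPR replicates 1 and 2, called in both. CCDC176 was at 80.7 and 118 CPM with Foxn4 CRISPR and at 37.3 and 54.5 with the morpholino, below every control. With Foxn4 CRISPR it was not called. The 1 fall of the list called there was that of PXN (-1.14 ± 0.37, edgeR adjusted p = 0.0484), which lost its call under 11 of the 16 alternatives. The fall of CCDC176 with the morpholino (-2.33 ± 0.54) was no longer called without morpholino replicate 1 (-2.09). The widest called fall there was that of VCL (-2.63 ± 0.4, edgeR adjusted p = 0.000891), whose call ended with every matching read credited (-0.69). SPEF1 also fell with Foxj1 CRISPR (-2.5 ± 0.32, edgeR adjusted p = 0.000434), a call kept under all 16 alternatives. Markers of multiciliated cells, the cells that hold these basal bodies, summed to 1590 and 2040 CPM with Foxj1 CRISPR, 5010 and 5040 with Foxn4 CRISPR and 2720 and 3640 with the morpholino, all below the control range. Of 9 tested models 9, 1 and 8 fell and 0 rose. The epidermal and basal markers also summed to values below the control range, at 15800 and 16100, 18100 and 18700, and 11100 and 15400 CPM. Of their 21 tested models 4, 4 and 8 fell and 1, 2 and 1 rose, and the others were not called. Goblet and small secretory markers (12 models of 4 of 6 symbols) ran from 867 to 2430 CPM over the controls. They were at 243 and 244, 270 and 326, and 122 and 172 CPM, and of 5 tested models 2, 1 and 2 fell and 0, 1 and 2 rose. Ionocyte markers (15 models of 4 of 5 symbols) ran from 448 to 751 CPM over the controls and from 404 to 560 over the perturbed libraries. Of 13 tested models 2, 1 and 8 fell and 4, 5 and 4 rose. Over all tested models 20.7, 10.7 and 21.1% fell and 19.8, 12.6 and 23.9% rose. The part of any of these marker lists in the falls of the basal body list and in those of CELSR2, VANGL1 and DVL1 was not tested.

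Fat and Dachsous form another polarity system of large cadherins. Of its 7 tested models 2 rose and 1 fell, 0 rose and 1 fell, and 0 rose and 2 fell, with medians of -0.57, -0.18 and -0.24. FAT2 on scaffold 29940 stood at 44.5, 187 and 32.0 CPM in the controls and between 5.33 and 16.8 in all perturbed libraries, with values of -2.73 ± 0.69, -2.46 ± 0.68 and -3.66 ± 0.73. Control replicate 2 was far above the others, and without it these calls were kept at -1.52, -1.26 and -2.48. The first ended without either Foxj1 CRISPR replicate (-2.79 and -2.68) and the second without either Foxn4 CRISPR replicate (-2.36 and -2.55). The 2 rises with Foxj1 CRISPR were those of FAT1 (1.54 ± 0.48 and 1.25 ± 0.42), and both ended without control replicate 1 (1.5 and 1.15), without control replicate 3 (1.22 and 1), without Foxj1 CRISPR replicate 1 (1.62 and 1.25) and without replicate 2 (1.45 and 1.25), the latter copy also without Foxn4 CRISPR replicate 2 (1.25).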

How the data were processed

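The members and gene lists were chosen with earlier results of these data known. The RNA files deposited by the authors hold, per the file headers, an eXpress estimated count for each gene model, in which reads with several matches were divided among models. Per the file headers they also hold a count of whole reads (unique matches, and every match) and TPM, computed by the authors with eXpress. The submitters' processing notes name Bowtie2, DESeq, eXpress, HOMER and STAR without versions. The authors' deposited comparison tables were used for their log2 and adjusted p-value columns, per the file headers. The deposited log2 runs control over perturbed (r between -0.982 and -0.924 with the fold changes computed here) and was turned. HOMER peak lists, 1 per ChIP library, were made by the authors against a common input per the file headers, at a false discovery rate of 0.001 and at least 4 times the tags of the input and of the surrounding 10000 bp. The deposited lists hold the tag signal of each peak, also scaled to 10000000 tags, a score and a fold ratio over input. The genome was the version 7.1 assembly per the series' design text, and coordinates are 1-based.

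After rounding, the estimated counts entered edgeR 4.0.16 in R 4.3.3 (TMM scaling, default low-count filter, quasi-likelihood test, group as the only term, all 9 RNA libraries, 5 residual degrees of freedom). The p-values were adjusted by Benjamini and Hochberg over 19058 models. CPM values are TMM-scaled. Reads were not stranded, so overlapping antisense genes cannot be told apart. Models without a symbol held between 1.7 and 2.43% of the counts. Unique matches made up between 62.7 and 69.1% of all estimated counts. Replicate pairs differed by more than sampling noise. The steps were tried on simulated counts with less spread between libraries and far fewer changed models than these data. That trial therefore does not measure the error rate here. Alternatives were the size factors of DESeq2, DESeq2 1.42.0, no filter, other read counts, sums over a symbol, 2 groups only, a replicate block, leaving out each library, and for peaks 1000 and 10000 bp, a fold over input of at least 8 and 50% overlap. The share of tested models with a peak was added after seeing the data. All members were named, and from each list at most the 2 widest rises and 2 widest falls called against the control. The re-used input libraries were not analysed here.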

Additional observations from a re-analysis of the deposited data

How the results depend on the processing

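Of 60 calls of single models (27 of members and 33 of list genes), 4 turned direction under an alternative. These were PRICKLE2 on scaffold 34527 with Foxn4 CRISPR (-0.04 with uniquely matching reads) and, when all matching reads were counted, DVL1 with the morpholino (0.46), ANKRD6 with Foxn4 CRISPR (0.13) and GIPC1 on scaffold 15038 with the morpholino (0.38). The number of members called was 12 with all matching reads for Foxj1 CRISPR against the control. The number of all models called there is not given here, so this count has no background to be read against. For Foxn4 CRISPR it was 3 with uniquely matching reads, with sums over a symbol and with only the 2 groups. For the morpholino it was 3 with sums over a symbol (of 10 genes) and 6 with the 2 groups. Between the morpholino and Foxn4 CRISPR it was 1 with no filter, uniquely matching reads or the 2 groups, 5 with all matching reads and 4 with DESeq2, and between the morpholino and Foxj1 CRISPR 6 with all matching reads. Leaving out 1 library at a time gave between 4 and 9, 1 and 6, and 5 and 9 members against the control and between 0 and 0, 0 and 2, and 0 and 4 in the other comparisons. Where this left 1 library in a group, that library was assumed to vary like the other groups.

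Over all models, 7712, 4424, 8571, 276, 1042 and 1411 were called in the 6 comparisons, in the order of the report. Without single libraries the ranges were 3431 to 8250, 1213 to 5048, 5310 to 9008, 0 to 614, 121 to 1868 and 178 to 2188. Sums over a symbol, which test fewer features, gave 5000, 2761 and 5520 in the first 3 and 613 in the fifth. All matching reads gave 7044 in the second, 3551 in the fifth and 5032 in the sixth. DESeq2 gave 739, 2173 and 2377 in the last 3, and in the fourth no filter gave 429 and the 2 groups alone 705. Beyond fewer features or samples, the cause was not tested. With a replicate block the members called were 7, 5, 8, 0, 0 and 2 (lost were PRICKLE2 on scaffolds 34527 and 229341 with Foxn4 CRISPR at 0.73 and -1.32, DVL1 and DVL2 on scaffold 272690 with the morpholino at -0.87 and 0.81, and DVL1 between morpholino and Foxj1 CRISPR at 1.45), and all models called in the fourth comparison 0. The labels do not say that replicate numbers pair samples. Deviations of same-numbered libraries correlated at 0.515 between the CRISPR groups, at 0.174 and 0.0919 with the morpholino, and between -0.142 and -0.0169 with the control. Within 1000 bp of the start 12 and 9 members had a peak, beside 53.3 and 31.4% of all models. Within 10000 bp 16 members had one in each list, beside 72.5 and 47.8% of all models. Depth limits PRICKLE1 most.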
